A study of Homo sapiens with 2 samples.

Results

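The miR-34 and miR-449 microRNAs (miRNAs) were measured in CL1-5 cells, a human lung adenocarcinoma line selected for invasiveness, by real-time PCR after reverse transcription on a card of 365 miRNA assays. The family was taken by name, as every assay beginning with miR-34a, miR-34b, miR-34c or miR-449, and 5 of the 365 assays met this rule: miR-34a, miR-34b, miR-34c, miR-449 and miR-449b. There were 2 RNA samples, 1 from stably selected cells carrying the empty vector pcDNA3.1 (called vector cells here) and 1 from stably selected cells overexpressing ANGPTL1, a secreted angiopoietin-like protein. Both lines went through 4 weeks of the antibiotic G418 before RNA was taken, and whether each is 1 clone or a pool is not given in the sources used here. With 1 sample per group there is no replicate spread, so no difference below carries an error, a test or a p-value, and each one compares these 2 RNA samples.

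A miRNA is a short RNA that guides the silencing machinery to messenger RNAs, mainly by pairing its seed, the bases near its 5′ end, with sites in the target. miRNAs with the same seed can bind overlapping sets of targets. The miR-34 genes are known as direct targets of the tumour suppressor p53, and miR-34a represses cell cycle and survival genes such as CDK6 and BCL2 as well as the receptor MET and the transcription factor SNAI1. miR-34b and miR-34c are cut from 1 shared primary transcript, while miR-34a has a transcript of its own. miR-449 miRNAs lie in an intron of CDC20B, are abundant in multiciliated cells of the airway, and together with miR-34b and miR-34c promote the formation of cilia.

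All 5 assay names matched 1 gene each in RefSeq (GRCh38.p14). MIR34A lies at chr1:9151668-9151777 on the minus strand, inside the span of the long noncoding RNA gene MIR34AHG. MIR34B, at chr11:111512938-111513021, and MIR34C, at chr11:111513439-111513515, lie on the plus strand with 417 bases between them, inside the long noncoding RNA gene MIR34BHG. MIR449A, at chr5:55170532-55170622, and MIR449B, at chr5:55170646-55170742, lie on the minus strand with 23 bases between them, inside the span of the protein-coding gene CDC20B. The assay named miR-449 carries an older name of MIR449A. The third gene of that cluster, MIR449C, had no assay among those analysed here.

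The mature sequences below, from RefSeq, are shown because the family is defined by its seed; they read 5′ to 3′, with bases 2 to 8 in capitals.

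miR-34a-5p: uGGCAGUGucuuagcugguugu

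miR-449a: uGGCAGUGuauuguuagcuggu

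miR-449b-5p: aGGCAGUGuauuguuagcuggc

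miR-34b-5p: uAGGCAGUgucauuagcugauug

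miR-34b-3p: cAAUCACUaacuccacugccau

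Bases 2 to 8 were the same in miR-34a-5p, miR-449a and miR-449b-5p. miR-34c-5p is a further family member, named here without a sequence. In miR-34b-5p the same 7 bases, GGCAGUG, lie at bases 3 to 9 because the annotated miRNA begins 1 base earlier. Its bases 2 to 8 are therefore AGGCAGU, which it shares with miR-449c-5p of the same family and with miR-2682-5p outside it. The 3p arm miR-34b-3p does not hold GGCAGUG at all. The assay is named miR-34b without an arm, and the name does not settle which arm was read. Both arms stand in capitals in the MIR34B hairpin, shown because its assay had the largest cycle difference in the family.

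MIR34B hairpin: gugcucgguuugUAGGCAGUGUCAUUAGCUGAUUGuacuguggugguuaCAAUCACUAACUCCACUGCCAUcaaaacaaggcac

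The 5p arm spans bases 13 to 35 of these 84 bases, and the 3p arm spans bases 50 to 71. The same question of the arm applies to the assays named miR-34a, miR-34c and miR-449b. Within the MIR449 cluster, miR-449a and miR-449b-5p are identical at 20 of 22 bases. They differ by U1A and U22C, counted from the 5′ end with the base of miR-449a first. miR-34a-5p and miR-449a, compared base by base from the 5′ end, match at 15 of 22 positions. Cross-reading between these assays was not tested.

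Abundance was recorded as the average threshold cycle (Ct), the PCR cycle where the fluorescence passes a fixed threshold. If each cycle doubles the product, an assay that is 1 cycle earlier started from about 2 times the template. Runs ended at cycle 40, which was read as no amplification, and an assay counted as detected below cycle 35. Differences are given relative to RNU48, the small nucleolar RNA that served as endogenous control and crossed threshold at cycle 20.79 in vector cells and 21.21 in ANGPTL1 cells. A positive log2 ratio means more of the miRNA in ANGPTL1 cells.

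The family was scarce in both samples. In vector cells 4 of 5 members were detected, and in ANGPTL1 cells again 4 of 5. Across the card 43.0% of assays were detected in vector cells and 43.3% in ANGPTL1 cells. A set of 3 members, miR-34a, miR-34c and miR-449, was detected in both samples, miR-34b in ANGPTL1 cells alone, and miR-449b in vector cells alone. By locus, the single MIR34A member and 1 of 2 members each of the MIR34B/C and MIR449 loci were therefore measured on both sides.

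miR-34a, the most studied member, crossed threshold at cycle 31.96 in vector cells and 32.55 in ANGPTL1 cells. It was the earliest member in both samples, at place 117 of 365 assays in vector cells and 119 in ANGPTL1 cells. Its level was 0.0434% of RNU48 in vector cells and 0.0386% in ANGPTL1 cells. The log2 ratio of -0.17 lay within 2-fold, and without the RNU48 reference it was -0.59.

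miR-34c crossed threshold at cycle 34.46 in vector cells, close to the detection limit, and at 32.85 in ANGPTL1 cells. It stood at place 151 of the card in vector cells and at place 123 in ANGPTL1 cells. Its level was 0.00767% of RNU48 in vector cells and 0.0316% in ANGPTL1 cells, a 4.11-fold higher level and a log2 ratio of 2.04. Without the reference the log2 ratio was 1.61, still past 2-fold.

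miR-34b, from the same transcript, stood at cycle 40 in vector cells and crossed threshold at 33.96 in ANGPTL1 cells, where its level was 0.0145% of RNU48. With vector cells set to the detection limit of 35, miR-34b was at least 2.75-fold higher in ANGPTL1 cells, a log2 bound of 1.46. Without the reference the bound was 1.04. The authors' deposited table gives an 88.0-fold difference, which takes the 40 as a measured cycle. A bound above 0 follows from detection in ANGPTL1 cells alone and is no separate observation.

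**Figure D1:**
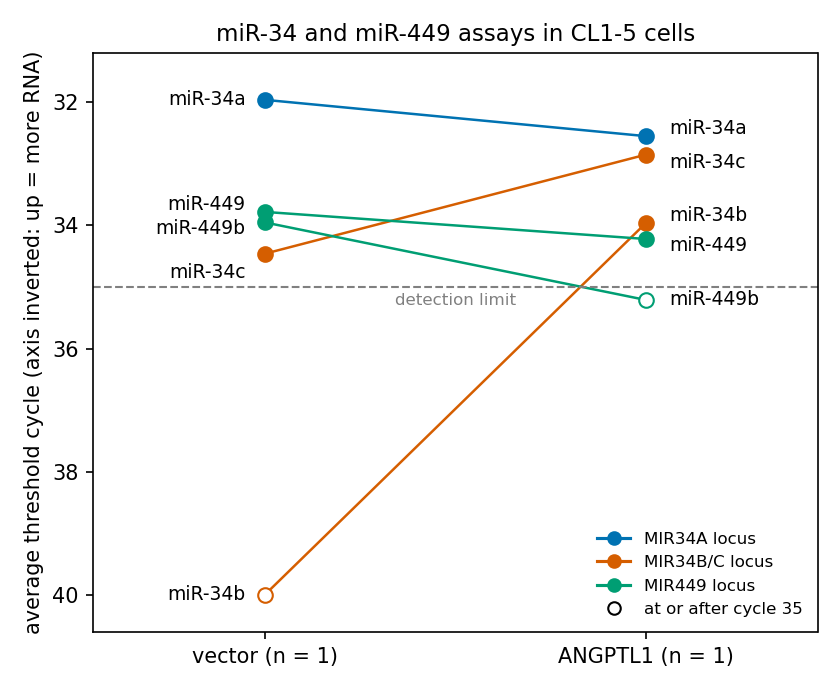
Average threshold cycle of the 5 family assays (vertical axis, inverted so that higher points mean more RNA) in the vector and ANGPTL1 samples, 1 sample each. Lines join the same assay, colours mark the locus, open points lie at or after cycle 35 (dashed line). Cycles are shown without a reference, and RNU48 itself was 0.42 cycles later in ANGPTL1 cells. Both MIR34B/C assays reach threshold earlier in ANGPTL1 cells, miR-34c by 1.61 cycles. miR-449 reaches it 0.44, miR-34a 0.59 and miR-449b 1.26 cycles later. Relative to RNU48 the log2 ratios of miR-449 and miR-34a were -0.02 and -0.17.

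The assay named miR-449, for the first miRNA of the CDC20B locus, crossed threshold at cycle 33.78 in vector cells and 34.22 in ANGPTL1 cells. Its levels were 0.0123% and 0.0121% of RNU48, a log2 ratio of -0.02 that was -0.44 without a reference and 0.11 with the mean of miR-16, miR-103 and miR-191 as reference. No direction can be given for it. miR-449b crossed threshold at cycle 33.95 in vector cells and 35.21 in ANGPTL1 cells, just past the detection limit. ANGPTL1 cells held at least 1.55-fold less of it, a log2 bound of -0.63. The authors' deposited table gives a 1.79-fold lower level, from the cycle as measured, and without the reference the bound reached -1.05, past 2-fold. The MIR449 assays lay 0.17 cycles apart in vector cells and 0.99 apart in ANGPTL1 cells.

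Past the 2-fold size, 1 member measured in both samples (miR-34c) was higher and 1 further member (miR-34b) was higher by its bound; both are of the MIR34B/C locus. On the lower side 0 members passed. Among all miRNAs detected in both samples, 11 of 145 (7.59%) were at least 2-fold higher and 7 (4.83%) at least 2-fold lower. When those detected in 1 sample alone are added with their bounds, 20 of 170 (11.8%) were at least 2-fold higher and 9 (5.29%) lower. Of these 170, 13 (7.65%) were detected in ANGPTL1 cells alone, as miR-34b was, and 12 (7.06%) in vector cells alone, as miR-449b was. The median log2 ratio was -0.02 for the 3 members detected in both samples and -0.01 for the 145 miRNAs.

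**Figure D2:**
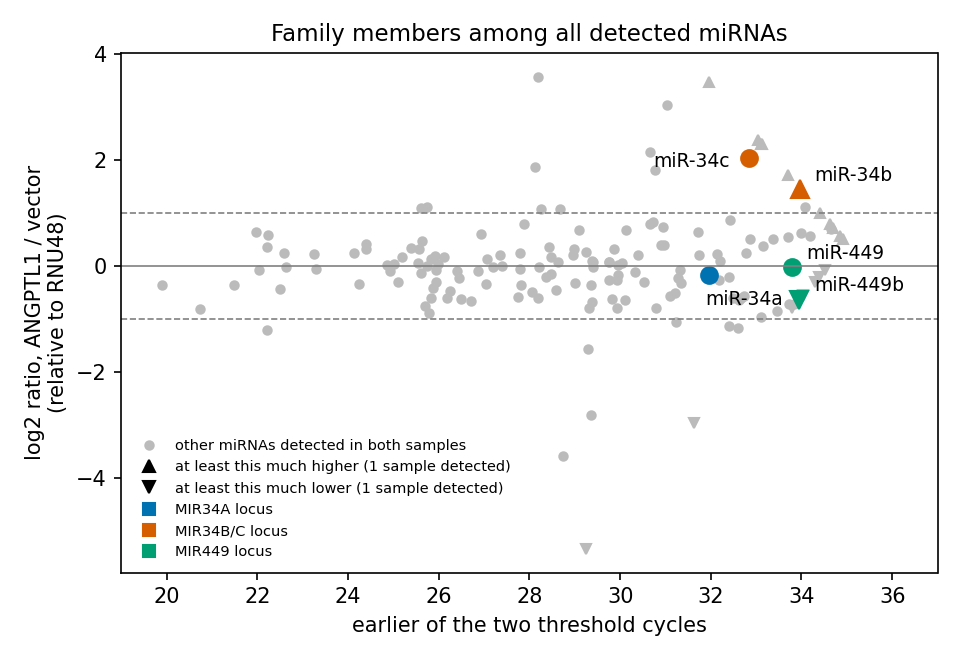
Log2 ratio of ANGPTL1 over vector cells relative to RNU48 (vertical axis) against the earlier of the 2 threshold cycles (horizontal axis). Grey marks are miRNAs outside the family and coloured marks the members by locus, with circles for ratios measured in both samples, triangles for bounds that give a direction and dashed lines at 2-fold. miR-34c (2.04) lies below the grey circles of miR-155 (3.58), miR-127 (3.04) and miR-146a (2.15), all at earlier cycles, and above all other grey circles. It also lies below the bounds of miR-181b (3.47), miR-376a (2.39), miR-137 (2.31) and miR-432 (2.30). miR-34a (-0.17) and miR-449 (-0.02) lie among the grey circles.

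Late cycles are measured less precisely, so miR-34a, miR-34c and miR-449, the members detected in both samples, were compared at like abundance. miR-34b and miR-449b were not compared in this way. Each of the 3 was set beside the miRNAs outside the family that were detected in both samples with a mean cycle within 1 cycle of its own. Around miR-34c there were 21 such miRNAs, with log2 ratios from -1.16 to 1.13 and a median of -0.20. Of these 21, 1 was at least 2-fold higher and none was as high as miR-34c. That none was as high is partly set by the selection. Both cycles had to lie below the detection limit, so miRNAs late in the window could not reach that ratio. An assay named miR-432 (number 4373280), at cycle 40 in vector cells and 33.12 in ANGPTL1 cells with a bound of 2.30, fell outside the window. In the same window 7 further miRNAs were detected in 1 sample alone with a bound that gives a direction. Of those bounds 4 were at least 2-fold higher, and 3 of them lay above the ratio of miR-34c, those of miR-137, miR-181b and an assay named miR-376a (number 4373026), named after their values were seen. Around miR-34a there were 25, from -1.13 to 3.04, and 12 of them stood at or above its ratio. Around miR-449 there were 17, from -1.16 to 1.13 with a median of -0.55, and 8 stood at or above it. Its window held 8 further miRNAs with a bound that gives a direction, 4 at least 2-fold higher and 2 at least 2-fold lower. The window of miR-34a held 0 of that kind. These ranges describe single measurements at like abundance and hold real differences as well as noise.

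Distances between members of the same sample do not depend on the reference RNA. miR-34c came 2.50 cycles after miR-34a in vector cells and 0.30 cycles after it in ANGPTL1 cells. It came 0.68 cycles after miR-449 in vector cells and 1.37 cycles before it in ANGPTL1 cells. The distance from miR-34a to miR-449 was 1.82 cycles in vector cells and 1.67 in ANGPTL1 cells. The order by cycle was miR-34a, miR-449, miR-449b, miR-34c and miR-34b in vector cells. In ANGPTL1 cells it was miR-34a, miR-34c, miR-34b, miR-449 and miR-449b. With no replicate it cannot be said which neighbours in these orders differ beyond their spread, and the assays may differ in efficiency.

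If the levels of the detected members are added, with all assays taken as equally efficient, the sum was 0.0743% of RNU48 in vector cells and 0.0968% in ANGPTL1 cells. The ratio of the sums was 1.30 relative to RNU48 and 0.971 without a reference, so its direction is not settled. miR-34a made up 58.4% of the sum in vector cells and 39.9% in ANGPTL1 cells. The share of the MIR34B/C locus was 10.3% in vector cells and 47.6% in ANGPTL1 cells, and that of the MIR449 locus 31.3% and 12.5%. The shares do not depend on the reference. They leave out members past cycle 35, which are miR-34b in vector cells and miR-449b in ANGPTL1 cells. At its cycle of 35.21 in ANGPTL1 cells, miR-449b would stand at 0.0061% of RNU48. Leaving it out therefore lowers the MIR449 share there and raises that of MIR34B/C. Any miR-34b present in vector cells but past cycle 35 would raise the MIR34B/C share in those cells. Both omissions can thus widen the difference in the MIR34B/C share between the samples. The sum was added after the values had been seen.

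**Figure D3:**
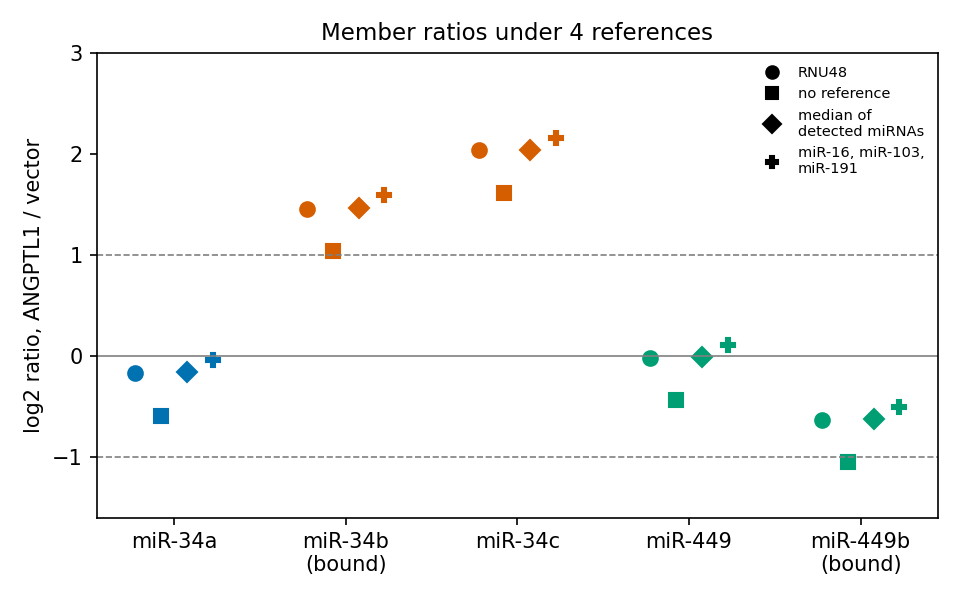
Log2 ratio or bound of each member, ANGPTL1 over vector cells (vertical axis), relative to RNU48 (circles), with no reference (squares), to the median of the miRNAs detected in both samples (diamonds), and to the mean of miR-16, miR-103 and miR-191 (crosses). Dashed lines mark 2-fold. miR-34b and miR-34c stay above the upper line under all 4, miR-34a lies between -0.59 and -0.04, and miR-449b passes the lower line only with no reference.

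Because miR-34b and miR-34c share a transcript and were both higher in ANGPTL1 cells, the start of their host gene MIR34BHG is shown, 250 bases before to 50 after it (RefSeq, GRCh38.p14, chr11:111510352-111510651, plus strand). It was searched for the p53 half-site consensus, a 10-base pattern that reads the same on both strands. Capitals mark the match.

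MIR34BHG start: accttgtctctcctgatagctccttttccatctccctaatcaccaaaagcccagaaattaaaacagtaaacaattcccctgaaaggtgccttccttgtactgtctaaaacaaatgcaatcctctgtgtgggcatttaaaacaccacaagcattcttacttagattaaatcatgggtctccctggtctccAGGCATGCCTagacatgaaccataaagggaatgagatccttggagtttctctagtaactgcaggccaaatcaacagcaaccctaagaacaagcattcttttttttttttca

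The window held 1 match, AGGCATGCCT, which begins 61 bases before the start. Of 35116 windows of 300 bases in the same table, 2329 (6.63%) held at least 1 match. The windows of MIR34AHG and CDC20B, the hosts of the other members, held 0 matches. Each window covers only 300 bases at 1 annotated start, so 0 matches do not show that a locus lacks a p53 site. A match is a description of these letters and says nothing of p53 binding in these cells, and p53 was not measured here.

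Other miRNAs known to be induced or matured through p53 were taken from a list of 14, of which 12 had an assay among those analysed. Of these, 8 were detected in both samples, 1 in vector cells alone and 3 in neither. In the 8, 1 was at least 2-fold higher, 1 at least 2-fold lower, and the median log2 ratio was -0.16. Beside the 7.59% and 4.83% of all miRNAs detected in both samples, 1 of 8 each way is not a result about this list. miR-200c, which represses the transcription factors ZEB1 and ZEB2, was 3.53-fold higher, at cycle 32.16 in vector cells and 30.77 in ANGPTL1 cells. miR-107, known to target HIF1B, was 2.06-fold lower, at cycles 31.24 and 32.70. Relative to the mean of miR-16, miR-103 and miR-191 its log2 ratio was -0.91, no longer past 2-fold. That reference includes miR-16, which is itself in this list. miR-192 (-0.04) and miR-194 (0.21), which are induced by p53, were within 2-fold. So were miR-29a (-0.05) and miR-29c (-0.26), and miR-16 (-0.36) and miR-15a (-0.79), which restrain the cell cycle. miR-215 stood at cycle 34.91 in vector cells and 40 in ANGPTL1 cells, too close to the limit for a direction. miR-143 and miR-145 stood at cycle 40 in both samples, and miR-141 at 40 in vector cells and 35.40 in ANGPTL1 cells. The 1 member past 2-fold in the direction of miR-34b and miR-34c was thus miR-200c, which is no result about the list. miR-141, past cycle 35 in both samples, was not counted.

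**Figure D4:**
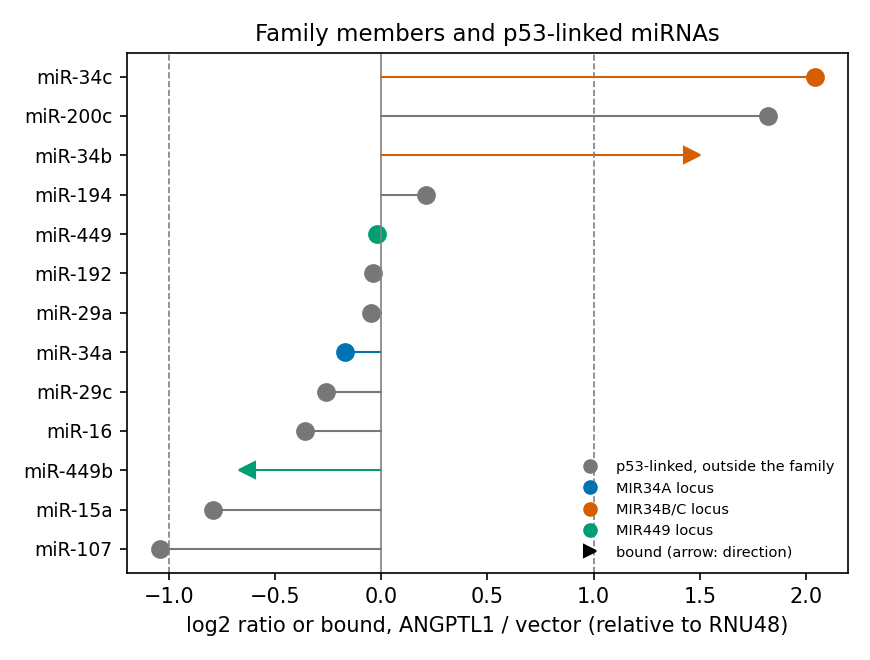
Log2 ratio or bound of ANGPTL1 over vector cells relative to RNU48 (horizontal axis) for the 5 family members (coloured by locus) and the 8 other p53-linked miRNAs detected in both samples (grey); arrowheads mark bounds and dashed lines 2-fold. miR-34c (2.04), miR-200c (1.82) and miR-34b (at least 1.46) lie past the upper line, and miR-107 (-1.04, or -0.91 relative to miR-16, miR-103 and miR-191) past the lower one.

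The assays outside the family most like each member were found as the 3 with the smallest distance in the pair of cycles, over these 2 samples. For miR-34c they were an assay named miR-376a (number 4373026, 0.879 cycles away), miR-380-3p (1.05) and miR-193b (1.11). For miR-34b they were miR-485-3p (0.290), miR-411 (0.450) and an assay named miR-432 (number 4373280, 0.840). The distance took the cycle of 40 of miR-34b in vector cells as a number. That these 3 were also detected in ANGPTL1 cells alone follows from this choice and is no separate observation. miR-34a lay nearest to let-7e (0.242), miR-642 (0.286) and an assay named miR-452 (number 4378077, 0.394). For miR-449 they were miR-325 (0.060), miR-134 (0.475) and miR-380-3p (0.523), and for miR-449b miR-30e-5p (0.0906), an assay named miR-199a (number 4378068, 0.286) and miR-548d (0.436). The nearest assay to miR-34c was farther away than the nearest assay to any of the other members. Few miRNAs detected in both samples had as high a ratio, so this distance is no separate observation from its ratio.

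Epithelial miRNAs were looked at to check the origin of the line. Of 7 measured under a single assay name, 4 were at cycle 35 or later in both samples, beside 53.4% of all miRNA assays on the card. Among the 7, miR-200c and miR-203 were detected in both samples and miR-375 in vector cells alone, at cycle 34.38. miR-200b, miR-205 and miR-429 stood at cycle 40 in both samples. The summed level of those detected was 0.163% of RNU48 in vector cells and 0.228% in ANGPTL1 cells. Of 4 blood cell miRNAs measured, miR-142-3p was detected in vector cells alone, at cycle 34.51. miR-142-5p, miR-223 and miR-451 were detected in neither sample. The summed level of those detected was 0.00741% of RNU48 in vector cells and 0 in ANGPTL1 cells. That 0 is set by the detection limit. In ANGPTL1 cells miR-142-5p stood at cycle 36.30, miR-451 at 36.83, miR-142-3p at 37.19 and miR-223 at 40. The part of other cell types in the values of the family was not tested.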

How the data were processed

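The deposited values came from version 1.0 of the human miRNA panel on TaqMan Low Density Array cards, with 500 ng of total RNA per reverse transcription and 40 PCR cycles, per the labels' protocols. The authors deposited average threshold cycles and delta Ct (cycle minus that of RNU48), both log2-scale values, per the file headers; the number of wells averaged, the threshold setting and the software: not given in the sources used here. Deposited delta Ct matched the cycles within 0.01. The authors' deposited fold change is a ratio, ANGPTL1 over vector cells. Groups came from the treatment labels, with 1 sample each, so no test was run.

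The log2 ratio was delta Ct in vector cells minus that in ANGPTL1 cells. Detection meant below cycle 35; where only 1 sample was below it, the other cycle was set to 35 and the result called a bound. A value counted as higher or lower from 2-fold. Named were all members, the 3 nearest assays of each, RNU48 and the detected members of 3 lists (p53-linked, epithelial, blood cell); list members past the limit in both samples were named after their values were seen. Names on several assays were left out of the lists. Members and lists were chosen with earlier results of these data known. Functions were tested on simulated data. Python 3.11.15 and matplotlib 3.10.9 were used. Other detection limits, references, bounds and fold sizes were tried as alternatives.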

Additional observations from a re-analysis of the deposited data

How the results depend on the processing

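No paired analysis was possible because there was 1 sample per group, and no replicate could be left out. Below cycle 32 the number of members detected was 1 in vector cells and 0 in ANGPTL1 cells, so 0 members were past 2-fold higher; miR-34a was then left with a bound that gives no direction and the others with no value, because fewer assays are counted. Below 38 or with no limit, 4 and 5 were detected. The count of members at least 2-fold higher (2) was the same with no reference, the 2 other references, the authors' deposited fold changes and a 1.5-fold size, and was 1 at 4-fold. The count lower (0) was 1 with no reference, where miR-449b reached -1.05, and 1 at a 1.5-fold size. With cycles up to 40 in place of 35, miR-34b stood at 6.46 and miR-449b at -0.84; with a limit of 38 the bound of miR-34b was 4.46. Relative to miR-16, miR-103 and miR-191 all ratios were 0.13 higher, and without a reference 0.42 lower. Among p53-linked miRNAs the count lower (1, miR-107) was then 0 and 2 in turn, the second with miR-15a at -1.21. The alternatives for the lists and the sum were chosen after seeing the data. The earliest cycle of any member was 31.96, and 1 measurement per sample cannot separate noise from difference.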
